A study of Mus musculus with 6 samples.

Results

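Fibroblasts of the brain's coverings and vessels made up 419 of the 50287 cells kept from 6 hippocampal single-cell libraries. They were chosen by measured expression: a cell belonged where the 6 genes Bnc2, Col1a2, Dcn, Slc6a13, Ranbp3l and Adamtsl3 together reached at least 20 counts per 10000 UMIs (CP10k), from at least 4 UMIs and at least 2 of the genes. A UMI is a molecular tag that marks 1 captured RNA molecule, and the deposited 10x Genomics matrices count UMIs per gene and cell. Kept cells had at least 500 UMIs, at least 300 genes and at most 20% mitochondrial UMIs.

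The mice were old and were exposed to 2% sevoflurane, an inhaled anaesthetic, for 6 h (group Sevoflurane, 3 libraries) or to air (group Control, 3 libraries). The hippocampus was collected 24 h later, digested with collagenase, frozen as a cell suspension and thawed for 3′ capture with version 3.1 chemistry. Strain, exact age and sex, whether a library pools animals, and how much meninges stayed on each hippocampus are not given in the sources used here. The p-values therefore reflect only how these libraries vary, which may be technical. The question is what differed 24 h after the anaesthetic.

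Meningeal fibroblasts build the pia, arachnoid and dura, the sheets that enclose the brain, and perivascular fibroblasts accompany vessels that enter it. They secrete collagens, laminins and proteoglycans, carry transporters for organic ions, amino acids and anions between blood, cerebrospinal fluid and tissue, and release retinoic acid and bone morphogenetic proteins. Layers of the meninges are known to differ in these products, and a hippocampal dissection holds only the fibroblasts that remain attached to the tissue.

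The libraries held 54426522 to 70741809 UMIs, and any pair shared at most 0.333% of the barcodes of the smaller library. Sevoflurane 1 stood apart in the sex-linked RNA of its cells other than fibroblasts: Xist, which is made from the silenced X chromosome, was at 1397 CPM (counts scaled to the library's total) there, against 0.536 to 1.21 CPM in the other 5 libraries, and the Y-linked Uty was at 0.0743 CPM, against 131 to 141 CPM. The pattern is female in Sevoflurane 1 and male in the other 5. Choroid plexus cells, gated on their markers other than Ttr, numbered 1, 5 and 1 in Sevoflurane 1, 2 and 3, against 65, 18 and 118 in Control 1, 2 and 3.

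The cells carried fibroblast genes beyond those that chose them. The summed level of 12 further fibroblast markers was 81.9 to 140 CP10k per fibroblast across the libraries, against 1.75 to 3.74 CP10k in all other cells, and 413 of the 419 cells had a UMI of at least 1 of them. So did 44.3% of other cells in Control 1 and 52.0% in Control 2, so a single UMI says little about identity. Ptgds was the most abundant of the 12 and had a UMI in 79.7% of fibroblasts, against 17.4% for Col1a1 and 16.9% for Col3a1. Neuronal markers summed to 26.7 to 32.9 CP10k in fibroblasts, against 101 to 111 CP10k in other cells. In 12 fibroblasts the neuronal markers exceeded the fibroblast and rule genes, and a doublet caller, Scrublet, marked 38 of the 419. A set of 6 perivascular fibroblast markers summed to 9.75 to 12.6 CP10k in fibroblasts, with a median of 8.68 CP10k in mural cells, so the perivascular side of the label has few markers of its own here. Markers of border macrophages were low but not lower than elsewhere. Their median over libraries was 0.186 CP10k in fibroblasts (at most 0.598) and 0.148 CP10k in other cells (at most 0.235). Ependymal markers were lower in fibroblasts, at a median of 0.284 CP10k (at most 0.722), against 1.97 CP10k in other cells. Mural markers were higher in fibroblasts than in other cells, at medians of 3.48 and 1.09 CP10k, against 64.8 CP10k in mural cells.

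The rule genes did not mark 1 uniform cell. Slc6a13, a GABA transporter, and Ranbp3l, a Ran-binding protein, occurred together: 96.7% of the cells with a Slc6a13 UMI also had Ranbp3l. Adamtsl3, a secreted matrix protein, went with the zinc finger gene Bnc2, found in 99.3% of cells with an Adamtsl3 UMI, while 4.6% of those cells had Ranbp3l and 4.0% had Slc6a13. In reverse, 78.4% of cells with a Ranbp3l UMI had Slc6a13, and 54.3% of cells with a Bnc2 UMI had Adamtsl3. The rule asked for at least 2 of the genes, so every cell had to carry a partner gene. These shares are therefore a description, though the rule did not set which gene was the partner. Most cells were carried by few of the genes: 148 cells had 2 rule genes, 165 had 3, 88 had 4, 16 had 5 and 2 had 6. Near the threshold, 51 cells held 20 to 25 CP10k and 29 cells outside held 15 to 20 CP10k. Dcn (decorin) was the least exclusive, with a UMI in 29.1% to 35.7% of the fibroblasts of the 5 libraries with more than 10 of them, in 8.04% to 12.5% of other cells and in 5.35% to 11.1% of gated microglia, which had a median of 1915.5 to 2287 UMIs a cell against 2551 to 3394 UMIs in fibroblasts.

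Beside the rule genes, the genes most raised over other cells were transporters, matrix genes, ligands and developmental transcription factors. The rule chose the cells in this contrast, so these values are a description. The highest mean log2 ratio belonged to Prdm6, a transcriptional regulator, at 384 ± 109 CPM in fibroblasts and 0.513 ± 0.227 CPM in other cells (SD, n = 5 libraries). Next came the organic cation exporter Slc47a1, at 382 ± 179 CPM in fibroblasts and 0.755 ± 0.350 CPM in other cells. The anion exchanger Slc26a7 was at 267 ± 60.7 CPM in fibroblasts and 0.726 ± 0.458 CPM in other cells, and the transcriptional coactivator Eya2 at 820 ± 215 CPM in fibroblasts and 4.24 ± 0.704 CPM in other cells. The other 16 of the top 20 held the amino acid transporter Slc6a20a, the dicarboxylate and sulfate transporters Slc13a3 and Slc13a4, the organic anion transporter Slc22a6, the retinoic acid enzyme Aldh1a2, the matrix genes Lama1, Fmod and Prg4, the ligands Bmp6 and Bmp5, the transcription factors Foxd1, Tbx15 and Zic4, and Cped1, Gm5860 and Ptgds.

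Ptgds, the prostaglandin D synthase of the meninges, showed how strongly single cells weigh here. It averaged 17360 ± 18930 CPM in summed fibroblast counts, and 6553 ± 1868 CPM once the 4 deepest fibroblasts were left out. A pair of those cells, of 225519 and 91576 UMIs, supplied 36.1% and 14.7% of all fibroblast UMIs of Control 3, and the other two, of 29236 and 19808 UMIs, supplied 6.03% and 4.09% of those of Sevoflurane 3. The next deepest fibroblast had 14461 UMIs. The main results on summed counts are therefore given with and without these 4 cells.

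Clustering the 419 cells without the rule genes gave 4 subgroups, named here by their leading genes. The genes that lead a subgroup define it and are no finding. The Cemip/Slc7a11 subgroup held 170 cells, with Cemip, a hyaluronan-degrading protein, at 11.2 CP10k against 0.37 in the other fibroblasts, and Slc7a11, the cystine and glutamate exchanger, at 24.5 against 2.61 CP10k. The 150 cells of the Slc4a10/Slc47a1 subgroup had the bicarbonate transporter Slc4a10 at 41.8 against 1.32 CP10k and Slc47a1 at 11.9 against 0.054 CP10k. In the Nnat/Alk subgroup of 73 cells, Nnat (neuronatin) stood at 41.8 against 3.83 CP10k, and the cation channel Trpm3 reached 369 CP10k. The Cubn/Dpp4 subgroup of 26 cells had the endocytic receptor Cubn at 4.75 against 0.0363 CP10k and fibronectin (Fn1) at 14.3 against 2.00 CP10k, and Scrublet marked 15 of its cells.

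The subgroups divided the rule genes and the transporters between them. Adamtsl3 was detected in 98.0% of Slc4a10/Slc47a1 cells at 24.2 CP10k, in 2.35% of Cemip/Slc7a11 cells and in none of the 73 Nnat/Alk and 26 Cubn/Dpp4 cells. Slc6a13 was at 8.75 CP10k in Cemip/Slc7a11 and 9.61 CP10k in Nnat/Alk cells, against 0.055 CP10k in Slc4a10/Slc47a1 cells. Slc6a20a followed the same division, at 16.1, 30.9 and 0.07 CP10k, as did the basement membrane laminin chain Lama1 at 9.36, 6.88 and 0.03 CP10k. Ptgds was at 99.0 and 174 CP10k in Cemip/Slc7a11 and Nnat/Alk cells, against 7.26 CP10k in Slc4a10/Slc47a1 cells.

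Markers of the meningeal layers also split, though each list holds only 6 genes and some are rule or leading genes. The pia list summed to 31.8 CP10k in Cemip/Slc7a11 and 20.1 CP10k in Nnat/Alk cells, against 4.37 CP10k in Slc4a10/Slc47a1 and 3.68 CP10k in Cubn/Dpp4 cells. The dura list was highest in Slc4a10/Slc47a1 cells, at 38.0 CP10k, against 7.53 to 11.7 CP10k in the other subgroups. The arachnoid barrier list, which holds Slc47a1 and Dpp4 themselves, stood at 19.6 CP10k in Slc4a10/Slc47a1 and 18.4 CP10k in Cubn/Dpp4 cells, against 2.31 and 2.55 CP10k in the other two. The 12 general fibroblast markers were lowest in Slc4a10/Slc47a1 cells, at 23.1 CP10k, against 206 CP10k in Nnat/Alk cells, so for these 150 cells the fibroblast label rests mainly on Bnc2, Adamtsl3 and Col1a2.

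**Figure D1:**
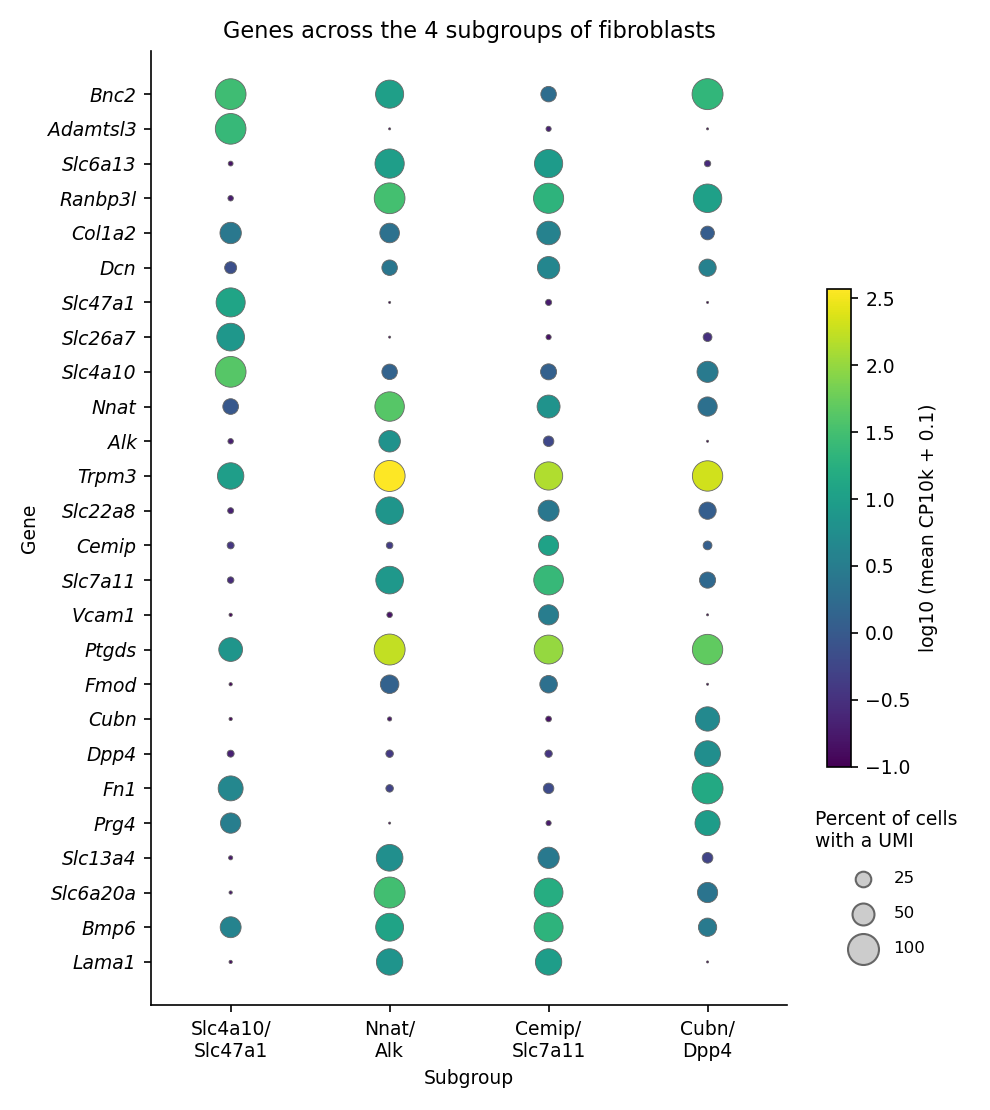
Genes (rows) across the 4 subgroups of fibroblasts (columns): colour gives log10 of the mean CP10k plus 0.1 and dot size the percent of cells with a UMI. Adamtsl3, Slc47a1, Slc26a7 and Slc4a10 fill 1 column, and Slc6a13, Slc6a20a and Lama1 the Nnat/Alk and Cemip/Slc7a11 columns.

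The number of fibroblasts varied widely within the Sevoflurane group. They were 35 of 9758, 8 of 8609 and 129 of 8734 cells in Sevoflurane 1, 2 and 3, against 70 of 7042, 74 of 8705 and 103 of 7439 cells in Control 1, 2 and 3. The shares were 0.359%, 0.0929% and 1.48% in Sevoflurane 1, 2 and 3 (exact 95% binomial intervals 0.250 to 0.498%, 0.0401 to 0.183% and 1.23 to 1.75%), against 0.994%, 0.850% and 1.38% in Control 1, 2 and 3 (0.776 to 1.25%, 0.668 to 1.07% and 1.13 to 1.68%). Sevoflurane 1 and 2 lay below all Control libraries and Sevoflurane 3 above them, so the groups overlapped; the intervals cover counting error only.

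The mean share was 0.643 ± 0.734% in Sevoflurane and 1.08 ± 0.277% in Control libraries (SD, n = 3 each), a difference of -0.433 percentage points (two-sided exact permutation p = 0.4; the smallest p that 3 against 3 can give is 0.1). Without Sevoflurane 3 the difference was -0.850 points and without Sevoflurane 2 it was -0.158 points. At this number of libraries no difference in the share was detectable. Depth moved little with the group: the median UMIs per fibroblast were 2551, 2915 and 3162 in Sevoflurane 1, 2 and 3, against 3394, 2660 and 2822 in Control 1, 2 and 3.

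The makeup by subgroup varied as well. Slc4a10/Slc47a1 cells were 22.9%, 12.5% and 38.8% of the fibroblasts of Sevoflurane 1, 2 and 3, against 42.9%, 29.7% and 37.9% of those of Control 1, 2 and 3. Cemip/Slc7a11 cells were 54.3%, 75.0% and 39.5% in Sevoflurane 1, 2 and 3, against 32.9%, 44.6% and 36.9% in Control 1, 2 and 3. Sevoflurane 1 and 2 had fewer of the first and more of the second than any Control library, while Sevoflurane 3 lay within the Control range for both. The 22.9% and 12.5% stand for 8 cells and 1 cell. As a percent of all kept cells, no subgroup's share passed a two-sided exact permutation test (p = 0.3 to 0.5), in which 3 against 3 libraries cannot go below 0.1.

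**Figure D2:**
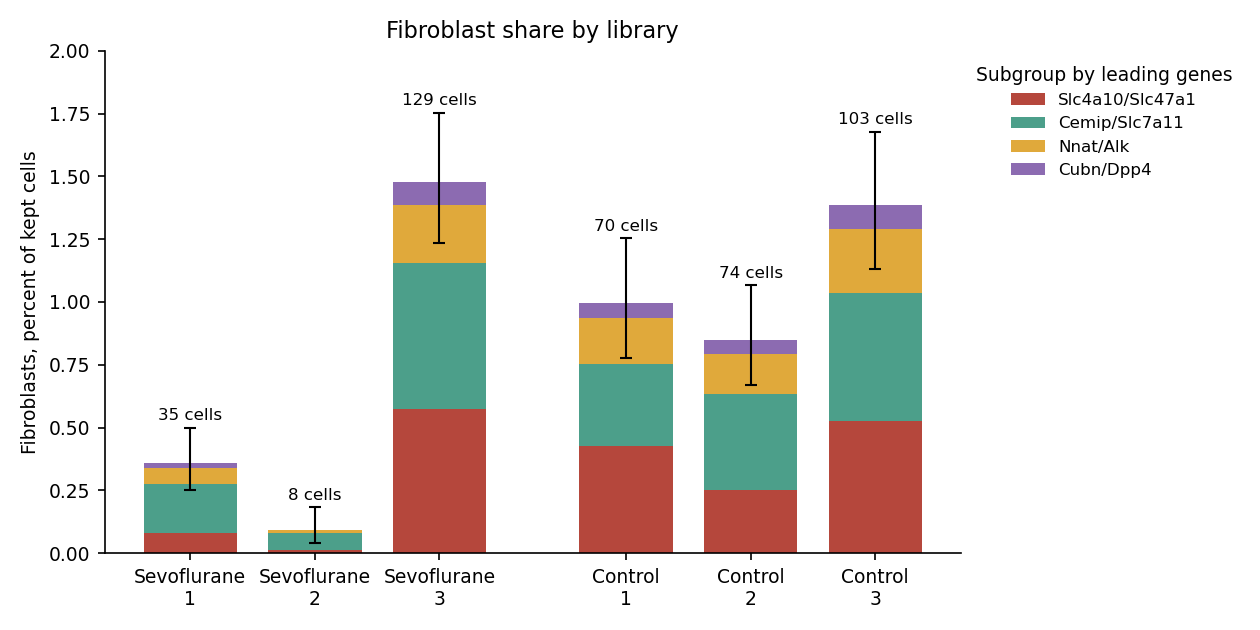
Fibroblasts as a percent of kept cells in each library, stacked by subgroup, with exact 95% binomial intervals of the total and the number of fibroblasts above each bar. Sevoflurane 1 and 2, at 0.359% and 0.0929%, lie below the 3 Control libraries, and Sevoflurane 3, at 1.48%, above them.

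Expression after sevoflurane was compared on UMI counts summed over the fibroblasts of a library, in libraries with at least 10 of them. Sevoflurane 2, with 8, was left out, so Sevoflurane 1 and 3 stood against the 3 Control libraries. No gene passed the adjusted threshold of 0.05: edgeR's quasi-likelihood test called 0% of the 6197 genes tested as higher and 0% as lower, and 271 genes (4.37%) had an unadjusted p under 0.05. DESeq2 called 2 genes higher (Kctd8 and Neat1) and 2 lower (Pde5a and Ttr), 0.0323% in each direction. Without Sevoflurane 1, edgeR called 1 gene higher (Kctd8, log2 fold change 2.61) and 1 lower (Ttr); that fit sets Sevoflurane 3 alone against the Control libraries and takes it to vary as they do. The Sevoflurane values lay wholly above the Control values for 9.76% of the genes and wholly below for 11.4%.

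Of the 10 genes of smallest p, 9 are given as values, since none passed. Kctd8, an auxiliary subunit of GABA-B receptors, was at 131 and 224 CPM in Sevoflurane 1 and 3, against 41.6, 28.8 and 38.6 CPM in Control 1, 2 and 3. Its log2 fold change was 2.36 (SE 0.35, edgeR adjusted p = 0.105), and the groups did not overlap. The counts behind it were small: 12 UMIs in 4 cells of Sevoflurane 1, 9 of them in 1 cell, and 98 UMIs in 23 cells of Sevoflurane 3, against 9, 6 and 20 UMIs in 5, 4 and 11 cells of Control 1, 2 and 3. Scrublet marked 7 of the 35 fibroblasts of Sevoflurane 1, and they held most of its Kctd8 UMIs. Without the marked cells Kctd8 was at 25.3 CPM (2 UMIs) and 207 CPM in Sevoflurane 1 and 3, against 37.8, 19.6 and 37.7 CPM in Control 1, 2 and 3, so the groups overlapped, and it had too few UMIs to be tested.

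Neat1, the nuclear RNA that scaffolds paraspeckles, was more abundant, at 1314 and 1224 CPM in Sevoflurane 1 and 3, against 204, 479 and 345 CPM in Control 1, 2 and 3 (log2 fold change 1.89, SE 0.32, adjusted p = 0.178). Every Control value lay below both Sevoflurane values of the fit. Sevoflurane 2, which was left out, went the other way: its 8 fibroblasts held 2 Neat1 UMIs among 23552, in 2 cells. Without doublet-marked cells Neat1 was at 103 CPM in Sevoflurane 2, below the 180, 471 and 278 CPM of Control 1, 2 and 3. Sevoflurane 1 and 3 were then at 1087 and 1192 CPM.

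Slc16a9, a monocarboxylate transporter family member, was at 197 and 197 CPM in Sevoflurane 1 and 3, against 74.0, 62.3 and 55.9 CPM in Control 1, 2 and 3. Its log2 fold change was 1.64. Tbc1d8 and Abi1, an adaptor of the actin-regulating WAVE complex, also had higher values, at log2 fold changes of 1.66 and 1.21 (1.77 and 1.12 without the 4 deepest cells).

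The 4 genes with lower values were Ttr, Pde5a, Bche and Rspo2. Pde5a, which degrades cyclic GMP, was at 120 and 80.1 CPM in Sevoflurane 1 and 3, against 772, 211 and 461 CPM in Control 1, 2 and 3 (log2 fold change -2.37). Bche (butyrylcholinesterase) was at 43.8 and 54.9 CPM in Sevoflurane 1 and 3, against 236, 115 and 179 CPM in Control 1, 2 and 3 (-1.76). Rspo2, a Wnt-enhancing secreted protein, had a log2 fold change of -1.73, but in Sevoflurane 3 8 of its 12 UMIs and in Control 3 28 of its 47 UMIs came from 1 cell. Without the 4 deepest cells the log2 fold changes of Bche and Rspo2 were -1.43 and -1.42.

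Ttr, transthyretin, is a product of the choroid plexus, and its difference was not confined to fibroblasts. It was at 10.9 and 18.3 CPM in fibroblasts of Sevoflurane 1 and 3, against 287, 173 and 1057 CPM in those of Control 1, 2 and 3. In all other cells it averaged 2.18 CPM in Sevoflurane 1 and 3, against 256 CPM in Control libraries. A Ttr UMI was found in 2.86%, 12.5% and 4.65% of fibroblasts of Sevoflurane 1, 2 and 3, against 58.6%, 36.5% and 87.4% in Control 1, 2 and 3, and in 1.13%, 1.37% and 1.22% of other cells, against 61.3%, 36.7% and 91.5%. The counts of choroid plexus cells given above moved the same way; their part in the Ttr values was not tested.

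**Figure D3:**
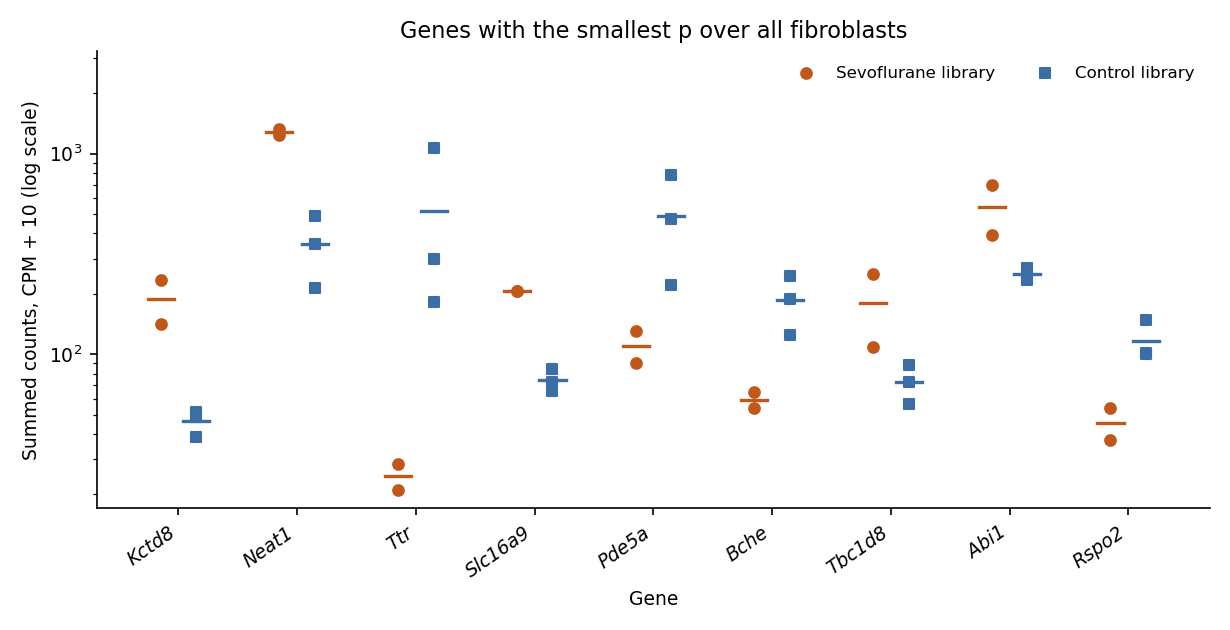
Summed fibroblast counts (CPM plus 10, log scale) of 9 of the 10 genes of smallest p in each library that entered the fit, with group means as bars; the 2 Sevoflurane libraries stand left of the 3 Control libraries. The groups do not overlap for any of the 9, and none passed the adjusted threshold. Of all genes tested, 9.76% lay wholly higher and 11.4% wholly lower in Sevoflurane. The 9 were picked by the test on these values, so their lack of overlap adds no support.

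Leaving out the 4 deepest fibroblasts, an alternative chosen after seeing the data, moved several of these genes past the threshold. Of 6138 genes tested, 5 were higher (0.0815%) and 3 lower (0.0489%) in Sevoflurane. Kctd8 rose by 2.08 on the log2 scale (SE 0.35), Neat1 by 1.76 (SE 0.27) and Slc16a9 by 1.58 (SE 0.26), with edgeR adjusted p-values of 0.0218 to 0.0220. Pde5a fell by 2.52 (SE 0.46), Ttr by 5.31 (SE 0.94) and Slit2 by 1.56 (SE 0.27), with adjusted p-values of 0.0284 to 0.0369. Erbb4, a neuregulin receptor, was also called (1.83), but 144 of its 200 UMIs in Sevoflurane 3 came from 1 cell. The 8 genes kept their direction when any 1 library was left out, but of the 8 calls 0 remained without Control 1, 4 without Control 2, 1 without Control 3 and 2 without Sevoflurane 3; all 8 remained without Sevoflurane 1, where Sevoflurane 3 stood alone.

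Several of these genes were carried by the Slc4a10/Slc47a1 subgroup. The mean level of Kctd8 per cell there was 3.55, 4.85 and 4.57 CP10k in Sevoflurane 1, 2 and 3, against 0.639, 0.475 and 1.47 CP10k in Control 1, 2 and 3. The 4.85 CP10k stands for 2 UMIs in the 1 such cell of Sevoflurane 2, which Scrublet marked as a doublet. Most Kctd8 UMIs of Sevoflurane 1 were also in marked cells. Without these, its Adamtsl3-positive fibroblasts held 1 Kctd8 UMI (44.3 CPM). Kctd8 did not exceed 0.304 CP10k in any other subgroup and library. Slc16a9 showed the same place of expression, at 4.67, 0 and 4.38 CP10k in Slc4a10/Slc47a1 cells of Sevoflurane 1, 2 and 3, against 1.38, 1.35 and 1.2 CP10k in those of Control 1, 2 and 3; the 0 is from the 1 such cell of Sevoflurane 2. Pde5a was at 2.78, 4.85 and 1.18 CP10k in these cells, against 12.5, 3.99 and 11.2 CP10k. The 4.85 CP10k, above Control 2, is again from the 1 marked cell of Sevoflurane 2.

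To hold the makeup constant, the fit was repeated on the fibroblasts with an Adamtsl3 UMI, again a choice made after seeing the data. Without the deepest cells these were 8 and 49 cells in Sevoflurane 1 and 3, against 30, 21 and 40 cells in Control 1, 2 and 3; Sevoflurane 2 had 1 and was left out. Of 3278 genes tested, 5 were higher (0.153%) and 6 lower (0.183%) in Sevoflurane. With the deepest cells included the counts were 1 higher (Kctd8) and 0 lower of 3305, with 170 at an unadjusted p under 0.05.

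The genes that rose in Adamtsl3-positive fibroblasts were Kctd8, Neat1, Tbc1d8, Slc16a9 and Abi1. Kctd8 was at 447 and 616 CPM in Sevoflurane 1 and 3, against 90.1, 82.2 and 175 CPM in Control 1, 2 and 3 (log2 fold change 2.18, SE 0.37, edgeR adjusted p = 0.0144). In Sevoflurane 1 and 3, against Control 1, 2 and 3, Neat1 was at 2640 and 2311 CPM, against 327, 822 and 848 CPM, and Tbc1d8 at 244 and 550 CPM, against 101, 144 and 48.7 CPM. Slc16a9 was at 650 and 602 CPM, against 180, 247 and 156 CPM, and for Abi1 the values were 691 and 1629 CPM, against 349, 288 and 487 CPM. In none of the 5 did a Sevoflurane library reach down to a Control library, and their log2 fold changes ran from 1.70 to 2.35. The same held for 388 of all 3278 genes tested, and the 5 were picked by the test on these values, so it adds no support. With doublet-marked cells also removed, a further choice made after seeing the data, which left 6 cells in Sevoflurane 1, 5 genes were called higher and 6 lower of 3274. They included 10 of the 11 genes named here. Kctd8 was no longer called (1.86, edgeR adjusted p = 0.0826): it was at 44.3 CPM in Sevoflurane 1, below every Control library, and at 474 CPM in Sevoflurane 3. Leaving out a library kept the direction of all 11 genes, but of the 11 calls 1 remained without Control 1 (Ttr), 1 without Control 2 (Pde5a), 2 without Control 3 (Kctd8 and Ttr) and 0 without Sevoflurane 3. All 11 remained without Sevoflurane 1, when Sevoflurane 3 alone stood against the Control libraries.

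The genes that fell in these cells were Slit2, Unc5c, Nrp1, Itgbl1, Pde5a and Ttr. Slit2, a secreted repellent, was at 650 and 866 CPM in Sevoflurane 1 and 3, against 2635, 2321 and 2116 CPM in Control 1, 2 and 3 (log2 fold change -1.58, SE 0.29, edgeR adjusted p = 0.0165). Unc5c, a netrin receptor, was at 975 and 462 CPM, against 2353, 2157 and 1950 CPM, and Nrp1, a co-receptor for semaphorins and vascular growth factor, at 406 and 257 CPM, against 1284, 822 and 1345 CPM. The Control libraries lay wholly above the Sevoflurane libraries for each of the 3, as they did for 453 of all 3278 genes tested.

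Itgbl1, a secreted protein related to integrin beta chains, was at 162 and 205 CPM in Sevoflurane 1 and 3, against 698, 719 and 692 CPM in Control 1, 2 and 3 (-1.84). Pde5a was at 284 and 154 CPM, against 1734, 575 and 1443 CPM (-2.76), and Ttr had a log2 fold change of -5.87. Slit2 is also among the genes that lead the Slc4a10/Slc47a1 subgroup. In the Slc4a10/Slc47a1 cells without Sevoflurane 1, a comparison of 3 Control libraries with Sevoflurane 3 alone, 22 genes were called higher and 31 lower, and all 11 genes were among them; that fit takes the lone Sevoflurane library to vary as the Control libraries do.

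**Figure D4:**
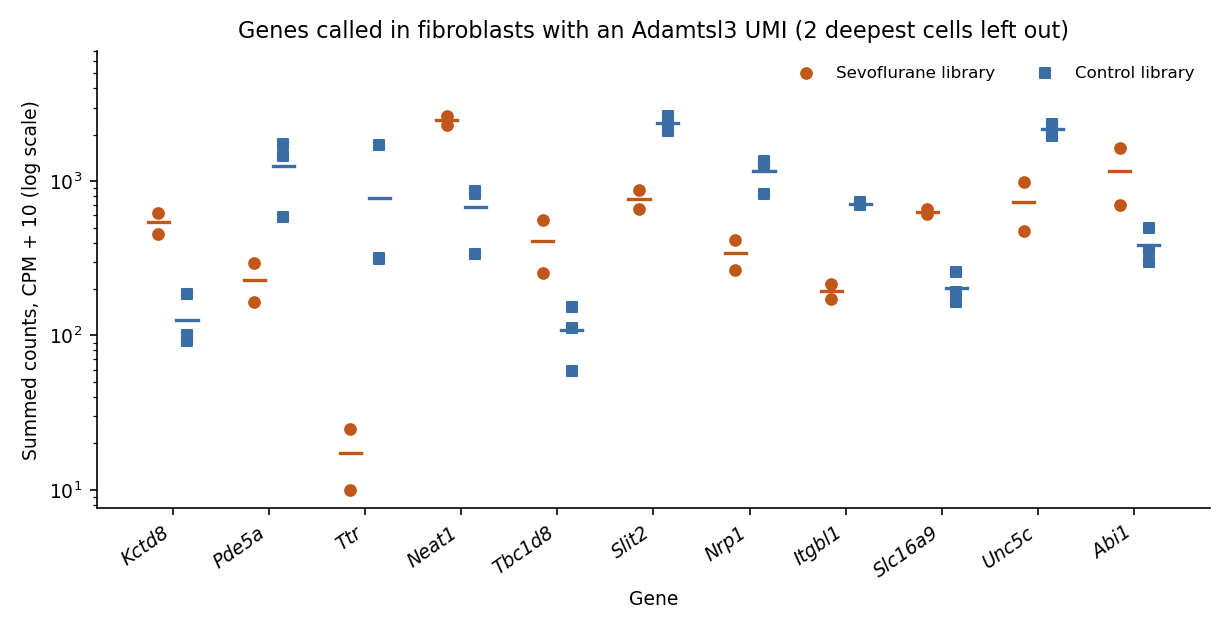
Summed counts (CPM plus 10, log scale) of the 11 genes called in fibroblasts with an Adamtsl3 UMI, per library with group means as bars; the 2 Sevoflurane libraries stand left of the 3 Control libraries. Kctd8, Neat1, Tbc1d8, Slc16a9 and Abi1 are higher and the other 6 lower in Sevoflurane.

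Fibroblasts outside the Slc4a10/Slc47a1 subgroup gave 0 called genes of 4664 by edgeR, with 149 at an unadjusted p under 0.05. Neat1 had a log2 fold change of 1.68 there and Slit2 of -1.50, with adjusted p-values of 0.791 and 1.00. Nrp1 turned direction, at 0.35. Whether the effects differ between the subgroups was not tested.

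The difference between the sevoflurane effect in fibroblasts and in all other cells of the same libraries was tested directly, as an interaction with the library as a block. Kctd8 alone passed of 6197 genes (0.0161%): its log2 fold change was 2.36 in fibroblasts and -0.32 in other cells, a difference of 2.64 (SE 0.37, edgeR adjusted p = 0.0277). In other cells Kctd8 averaged 73.8 ± 4.80 CPM in Sevoflurane and 92.1 ± 2.10 CPM in Control (SD, n = 2 and 3). The call was lost without Control 1, Control 3 or Sevoflurane 3, when 0 genes passed; 3 genes passed without Control 2 and 2 without Sevoflurane 1, Kctd8 among them each time. With doublet-marked fibroblasts removed, also an added alternative, 0 of 5983 genes passed by edgeR, with 270 at an unadjusted p under 0.05, and Kctd8 was not among the genes tested.

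Neat1 also had positive values elsewhere, with a log2 fold change of 1.14 in other cells and 1.25 in endothelial cells, and its difference from other cells was 0.63 (adjusted p = 1.00). The endothelial values here come from the libraries of the fibroblast fit, so Sevoflurane 2 was left out although it had 142 endothelial cells. Genes lower in Adamtsl3-positive fibroblasts also had negative values in endothelial cells. Nrp1 fell there by 1.15 on the log2 scale (edgeR adjusted p = 0.0428), and Slit2 and Pde5a were at -1.47 and -0.99 (edgeR adjusted p = 0.0870 and 0.198). In all other cells of the same libraries the log2 fold changes were -0.45 for Slit2, -0.42 for Unc5c and -0.36 for Itgbl1. Pde5a and Nrp1 were at -0.62 and -0.18 in all other cells, and none of these passed by edgeR. In mural cells Unc5c, Pde5a and Nrp1 were at -0.77, -0.60 and -0.38, and none passed, so the lower values were not confined to fibroblasts and endothelial cells. The difference between all fibroblasts and endothelial cells was 0.06 for Slit2 (SE 0.37), 0.12 for Nrp1 (SE 0.46) and -1.28 for Pde5a (SE 0.53), and none passed. Against endothelial cells, Slc16a9 alone passed (0.0161% of 6197 genes): it was lower in Sevoflurane in endothelial cells, at 30.02 ± 15.5 CPM against 95.9 ± 3.47 CPM in Control, and the difference of the effects was 3.15 (SE 0.43, adjusted p = 0.0489). That call was lost without Control 1, Sevoflurane 1 or Sevoflurane 3, when 0 genes passed and the difference was 2.88 to 3.92. Against mural cells 0% of 4105 genes passed by edgeR, with 132 at an unadjusted p under 0.05.

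Gene lists for fibroblast functions were read as counts and medians beside those of all genes, whose median log2 fold change was -0.03. In the fit of all fibroblasts none of their members passed. The cholesterol synthesis list had 8 of 23 genes with enough UMIs to test; all 8 had positive values, with a median of 0.56, and for 4 of 8 the Sevoflurane libraries lay wholly above the Control libraries, beside 9.76% of all genes. Pmvk (mevalonate pathway), taken from these 4, was at 54.7 and 93.8 CPM in Sevoflurane 1 and 3, against 13.9, 14.4 and 48.2 CPM in Control 1, 2 and 3. Its values stand for 5 and 41 UMIs in Sevoflurane 1 and 3, against 3, 3 and 25 UMIs in Control 1, 2 and 3. Without the 4 deepest cells the median was 0.98.

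The unfolded protein response list, chaperones and sensors of the endoplasmic reticulum, had the lowest median, -0.68 over 14 tested of 21 genes. For 5 of the 14 the Sevoflurane libraries lay wholly below the Control libraries, beside 11.4% of all genes, and for 1 (Atf4) wholly above. Xbp1, a transcription factor of this response, had the most negative value of the list (log2 fold change -1.36, edgeR unadjusted p = 0.0092, adjusted p = 0.962). It was at 10.9 and 43.5 CPM in Sevoflurane 1 and 3, against 74.0, 91.1 and 104 CPM in Control 1, 2 and 3. The 10.9 CPM stands for 1 UMI. Hsp90b1, the most abundant, was at 142 and 169 CPM in Sevoflurane 1 and 3, against 264, 211 and 447 CPM in Control 1, 2 and 3. Next in abundance were Hspa5, Dnajc3 and Canx, at log2 fold changes of -0.73, -0.32 and -0.63, and for each the groups overlapped. Without the 4 deepest cells the median was -0.33.

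Matrix lists shifted with the deepest cells, which were rich in Ptgds. The median was -0.58 for collagens (14 of 21 tested) with all fibroblasts and -0.34 without the deepest 4. The corresponding pairs were -0.62 and -0.12 for small leucine-rich proteoglycans (6 of 9, and 3 of 9 without the deepest) and -0.45 and -0.25 for matrix remodelling (9 of 22, and 8 without). They were -0.32 and -0.09 for growth factors (18 of 28, and 15 without). Elastic and adhesive matrix changed sign, at -0.43 and 0.13 (11 of 21, and 9 without). Except for collagens, the medians of a pair are thus over different numbers of genes. Col12a1 was at a mean of 84.7 ± 19.5 CPM in Sevoflurane and 160 ± 25.4 CPM in Control (-1.01, adjusted p = 0.962; SD, n = 2 and 3), and Timp3, a metalloproteinase inhibitor, at 730 ± 376 CPM in Sevoflurane and 475 ± 179 CPM in Control (0.55). The interferon and inflammatory list also changed sign, at -0.20 and 0.24 (10 of 32).

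The remaining lists lay near the median of all genes in the fit of all fibroblasts. Medians were 0.03 for basement membrane genes, 0.04 for immediate-early genes, 0.05 for glucocorticoid-responsive genes, 0.06 for iron, zinc and redox genes, -0.03 for growth factor receptors, -0.07 for transcription factors, -0.12 for transporters and -0.20 for retinoid genes. Without the 4 deepest cells the medians were 0.02 for basement membrane genes, 0.24 for immediate-early genes, 0.34 for glucocorticoid-responsive genes and 0.17 for iron, zinc and redox genes, and between -0.08 and -0.02 for the other 4 lists. Fkbp5, a glucocorticoid-induced gene, averaged 1468 ± 110 CPM in Sevoflurane and 1372 ± 422 CPM in Control libraries (SD, n = 2 and 3). The retinoic acid enzyme Aldh1a2 averaged 269.6 ± 71.6 CPM in Sevoflurane and 229.6 ± 26.2 CPM in Control libraries. The 6 rule genes, given as a description, had log2 fold changes from -0.56 (Dcn) to 0.34 (Slc6a13).

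**Figure D5:**
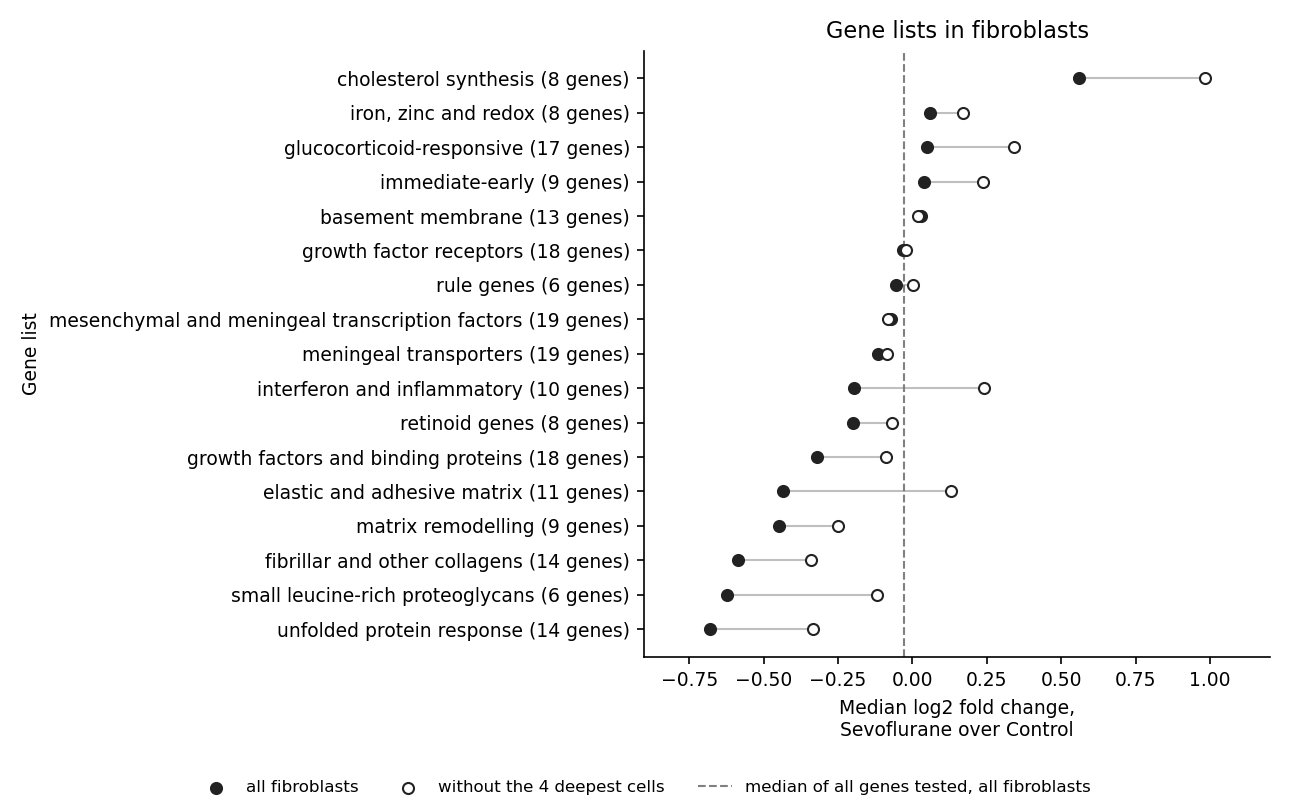
Median log2 fold change (Sevoflurane over Control) of each gene list over its tested genes, in all fibroblasts (filled) and without the 4 deepest cells (open); the dashed line marks the median of all genes tested. Cholesterol synthesis lies highest and the unfolded protein response lowest in all fibroblasts, at 0.56 and -0.68.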

How the data were processed

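The deposited matrices hold raw UMI counts per gene and barcode. Per the file headers, Cell Ranger 6.1.1 wrote them. The submitters' processing notes also list Seurat and CASAVA 1.8, and the genome build is not given in the sources used here. Cells were gated as described in the report, with doublets kept (Scrublet calls, at 0.8% per 1000 cells, were an alternative). CP10k are counts per 10000 UMIs of a cell, averaged over cells; CPM are from counts summed per library. Sums were tested with edgeR 4.0.16 (quasi-likelihood, TMM, filterByExpr, Benjamini-Hochberg over all genes tested, limma 3.58.1), with DESeq2 1.42.0 as an alternative, and the test was checked on simulated data. Mural and endothelial cells were gated on their own 6 markers with the same limits. Subgroups are Leiden clusters (scanpy 1.11.5, resolution 0.5) of the members without the rule genes; resolutions 0.3 and 0.8 kept 99.0% of cells with their subgroup's majority.

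Named genes were the rule genes, the 20 genes with the highest ratio to other cells (at least 100 CPM and 5% of members with a UMI), the called genes, the 10 genes of smallest p and up to 4 leading genes of each list. Further genes were named from the cholesterol synthesis and unfolded protein response lists. Erbb4's, Rspo2's and Kctd8's cell counts were looked up after their values were seen. The members and lists were chosen with earlier results of these data known. Replicate numbers were not used as pairs, since same-numbered libraries did not deviate together. Some genes are not reported here.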

Additional observations from a re-analysis of the deposited data

Results flagged for a closer look

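The response of Kctd8 to sevoflurane differed between fibroblasts and the other cells of the same libraries: the difference of the log2 fold changes was 2.64, with higher values in both Sevoflurane libraries of the fit. It rests on 12 and 98 UMIs in Sevoflurane 1 and 3 and on 9, 6 and 20 UMIs in Control 1, 2 and 3. The call was lost when Control 1, Control 3 or Sevoflurane 3 was left out, and no gene passed with doublet-marked fibroblasts removed (0 of 5983), where Kctd8 had 2 UMIs in Sevoflurane 1 and could not be tested. The response of Slc16a9 differed between fibroblasts and endothelial cells by 3.15 on the log2 scale, with opposite directions in the pair of cell types, and the call was lost without Control 1, Sevoflurane 1 or Sevoflurane 3; it rests on 18 and 86 UMIs in fibroblasts of Sevoflurane 1 and 3 and on 16, 13 and 29 UMIs in those of Control 1, 2 and 3.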

How the results depend on the processing

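The difference in the fibroblast share kept its direction under all 14 alternatives, from -0.850 to -0.158 percentage points. These alternatives reuse the same libraries, and pairing by replicate number cannot change the mean difference. The kept direction therefore adds no support for a difference. In the fit of all fibroblasts the counts of genes higher and lower were 0 and 0; they stayed at 0 and 0 with other size factors, a filter of 20 UMIs in 2 libraries, doublets removed and neuron-high cells removed. They were 2 and 2 with DESeq2, 11 and 25 with no filter, 2 and 4 with a limit of 40 CP10k, and 1 and 1 with all 6 libraries; leaving out a library gave 0 to 2 higher and 0 to 2 lower (2 and 2 without Control 2, 0 and 1 without Control 3, 1 and 1 without Sevoflurane 1, 2 and 1 without Sevoflurane 3). With the replicate block (libraries paired by number) they were 4 and 11, beside 2 and 2 in the same 4 libraries without it; the numbers do not pair the libraries. Added alternatives gave 5 and 3 without the 4 deepest cells, 7 and 6 for Nnat/Alk cells alone, with Sevoflurane 3 the only library of its group (6 and 4 with at least 5 cells a library), 22 and 31 for Slc4a10/Slc47a1 cells, likewise with Sevoflurane 3 alone (7 and 10 with at least 5), and 1 and 0 for cells with an Adamtsl3 UMI (5 and 6 without the deepest, and 5 and 6 without the deepest and doublets). The interaction with other cells called 0 to 3 genes when a library was left out, 2 without the 4 deepest cells and 0 with doublets removed; that with endothelial cells called 0 to 9 when a library was left out. Neat1 was at -0.028 in Cubn/Dpp4 cells, where 8 cells of Sevoflurane 3 alone stood against Control 2 and 3, so no reversal is read from it. Nrp1 reversed in Cemip/Slc7a11 cells (0.537, or 0.309 with at least 5 cells a library) and without the Slc4a10/Slc47a1 subgroup (0.351); the cause was not tested. Kctd8 could not be tested in all fibroblasts once doublets were removed. A fit without Sevoflurane 1 or 3 takes the lone Sevoflurane library to vary as the Control libraries do. With 2 Sevoflurane libraries in most fits and 35 cells in the smaller, changes of low genes were not detectable.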
